A study of Mus musculus with 29 samples.

Results

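RNA-seq libraries of embryonic mouse cortex labelled as lacking BAF155 and BAF170 were compared after treatment with a Wnt inhibitor and after vehicle. The comparison rests on 8 of the 29 samples of the series, 4 labelled dcKO with Wnt inhibitor and 4 labelled dcKO with vehicle, chosen by their labels for genotype and treatment. All 8 were labelled C57BL/6J cortices at E17.5 with both Baf155 (Smarcc1) and Baf170 (Smarcc2) floxed and hGFAP-Cre, so by label the vehicle libraries share the double deletion with the treated ones. The measured Smarcc1 and Smarcc2 levels put that genotype in doubt for the libraries labelled dcKO vehicle 2 and dcKO ICG-001 1 and 2. By Smarcc2 it is in doubt for dcKO ICG-001 4 too, and every direction given below rests on the labels. The inhibitor was ICG-001, injected daily into the peritoneum of pregnant mice, and the vehicle was DMSO. A further 4 WT libraries from vehicle-treated mice entered the fit and are given only as a reference level. The Cre is active in progenitors, first of the medial pallium and later of the dorsal and lateral pallium. Cells that do not descend from these progenitors, such as vessels, microglia and neurons that migrate in from the subpallium, keep both genes. Nothing in the labels says whether the 4 libraries of a group came from separate embryos or litters, so the p-values measure only the spread between these libraries.

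In canonical Wnt signalling, a secreted Wnt ligand binds a Frizzled receptor with an LRP co-receptor, beta-catenin escapes degradation, and in the nucleus it joins TCF/LEF factors and coactivators such as CBP to switch on target genes. Axin2 is the classic feedback target, and ICG-001 is known to block the contact of beta-catenin with CBP. In the developing cortex this pathway keeps radial glia dividing and patterns the medial pallium, next to the hem from which the choroid plexus arises. BAF complexes remodel nucleosomes, and BAF155 and BAF170 are the scaffold subunits that hold them together.

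Total counts ran from 16060994 to 24635257 reads in the 8 dcKO libraries, and 16372 of 48709 genes passed the filter on low counts. The cortical neuron genes Tbr1 and Bcl11b were read at 258 CPM (reads of a gene scaled to the library total) or more in all 8 libraries. Sequencing lanes, read from the deposited names, held vehicle libraries 1 and 2 with ICG-001 library 1, vehicle libraries 3 and 4 with ICG-001 libraries 2 and 3, and ICG-001 library 4 alone. Xist, the RNA of the inactive X chromosome, was at 1800 and 1980 CPM in vehicle libraries 2 and 4 and at 1970 CPM in ICG-001 library 4. The Y-linked Eif2s3y was at 79.2 CPM in vehicle library 3 and at 96.6, 106 and 107 CPM in ICG-001 libraries 1, 2 and 3. Vehicle library 1 held both, with 673 CPM of Xist and 35.9 CPM of Eif2s3y. The part of lane and sex in the results below was not tested beyond the fits named there.

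The level of the deleted genes differed among libraries that bear one label. Smarcc1 was at 136, 242, 133 and 138 CPM in vehicle libraries 1 to 4 and at 214, 252, 140 and 173 CPM in ICG-001 libraries 1 to 4, against 245, 266, 299 and 256 CPM in WT vehicle. Vehicle library 2 and ICG-001 libraries 1 and 2 therefore stood at 91.1%, 80.5% and 94.6% of the WT mean, and the other 5 at 65.1% or less. Smarcc2 was also highest among dcKO libraries in these 3, with 439, 692, 425 and 435 CPM in vehicle and 644, 695, 416 and 586 CPM in ICG-001 libraries, and 834, 716, 664 and 711 CPM in WT. Counts cover the whole gene, and reads outside the deleted exons and from cells that never had Cre count too, so no level here gives the share of deleted cells. In these bulk samples, fewer cells of a kind and less RNA per cell cannot be told apart.

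Between the treatment groups, Smarcc1 averaged 162 ± 53.4 CPM in vehicle and 195 ± 48.7 CPM with ICG-001 (SD, n = 4 each), and the 2 groups overlapped. The log2 difference of the means was 0.277, with a two-sided exact permutation p of 0.286 over 70 splits, where 0.0286 is the smallest p possible. For Smarcc2 the means were 498 ± 129 and 585 ± 121 CPM (SD, n = 4 each), with an exact permutation p of 0.457. The difference was within the spread between libraries for both genes. By Smarcc1 the libraries labelled dcKO with WT-like levels lay on both sides of the comparison, 1 of 4 in vehicle and 2 of 4 with ICG-001. By Smarcc2, ICG-001 library 4 also stood at 80.1% of the WT mean, against 60%, 58.1% and 59.5% in vehicle libraries 1, 3 and 4. Prm1, a protamine gene normally read in spermatids, was lowest among dcKO libraries in vehicle library 2 and ICG-001 libraries 1 and 2. It was at 28.9, 28.1 and 30.8 CPM in vehicle libraries 1, 3 and 4, at 2.49 CPM in vehicle library 2, at 2.87, 2.87, 12.1 and 8.21 CPM in ICG-001 libraries 1 to 4, and at 0.331 CPM or less in WT.

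**Figure D1:**
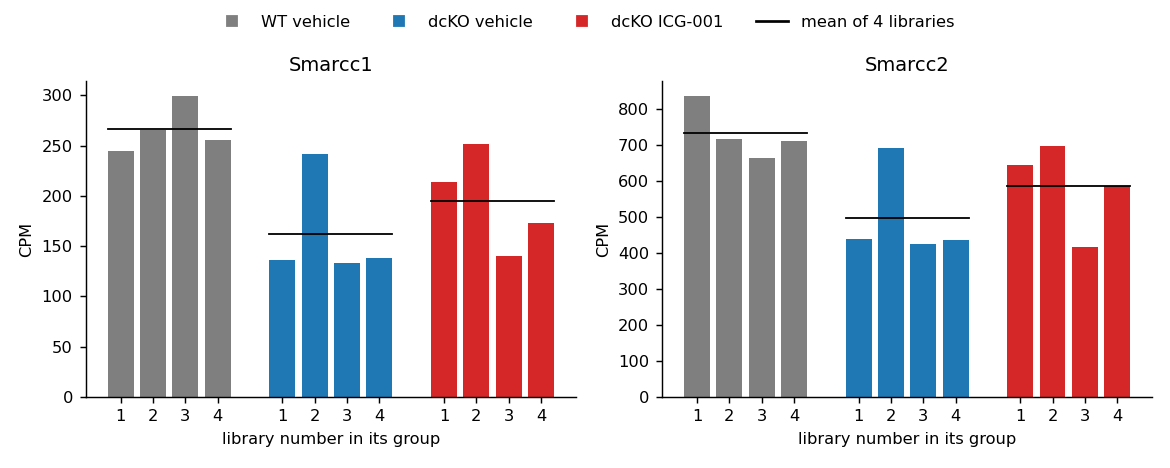
Smarcc1 (left) and Smarcc2 (right) in CPM in each of the 12 libraries, grouped as WT vehicle, dcKO vehicle and dcKO ICG-001, with a line at each group's mean. Vehicle library 2 and ICG-001 libraries 1 and 2 reach 242, 214 and 252 CPM of Smarcc1, while the other 5 dcKO libraries lie between 133 and 173 CPM.

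In the main fit few genes differed between the ICG-001 and vehicle libraries beyond the spread between libraries, and the number depended on the fit. At an adjusted p under 0.05 (Benjamini-Hochberg, edgeR quasi-likelihood test) 9 of 16372 genes were called, or 0.055%, with 7 higher (0.0428%) and 2 lower (0.0122%). With the limit set instead at a p of 0.01 with no adjustment, below called the 0.01 limit, 761 genes or 4.65% were called, 400 higher (2.44%) and 361 lower (2.2%). The 4 ICG-001 libraries lay entirely above or entirely below the 4 vehicle libraries for 1393 genes, or 8.51%. At the same adjusted p DESeq2 called 174 genes above vehicle and 165 below it, all 9 genes of the edgeR fit among them. With the lane as a block, or with the Smarcc1 or the Smarcc2 level as a covariate, edgeR called 0 genes. At the 0.01 limit these 3 fits held 550 genes above vehicle and 644 below, 342 and 294, and 326 and 246. In a fit without vehicle library 1, 3 or 4, or without ICG-001 library 4, no gene was called either, and without ICG-001 library 1 or 3 there were 3 and 1. Leaving out vehicle library 2 gave 105 higher and 72 lower, and leaving out ICG-001 library 2 gave 141 and 281. In all 20 alternative fits the 9 genes kept their direction. They were picked from these same libraries and their groups did not overlap, so leaving out libraries could hardly turn them, and this is no added support.

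Sfrp5, a secreted antagonist that binds Wnt ligands, had the smallest p. It was at 0.451, 0.445, 0.61 and 0.373 CPM in vehicle and at 2.51, 2.24, 1.51 and 1.95 CPM in ICG-001 libraries, so the groups lay apart, and WT at 0.972 to 1.59 CPM was above every vehicle library and reached into the treated range. The rise was 4.3-fold (log2 2.10 ± 0.25 SE, adjusted p = 0.0194), on a mean of 25.4 counts per library. Sfrp5 is on chromosome 19 (mm10, 42197971 to 42202252, minus strand). Sox8, a SoxE transcription factor of glial precursors that overlaps 2810468N07Rik on the opposite strand, was at 18.4, 21.8, 16.8 and 17.9 CPM in vehicle and at 32.4, 35, 35.4 and 35 CPM with ICG-001. It rose 1.84-fold (log2 0.88 ± 0.12, adjusted p = 0.0263), with all treated libraries above every vehicle and WT library. Foxp1, a forkhead factor of upper-layer and striatal neurons, rose from 83.2, 106, 100 and 84 to 145, 175, 157 and 153 CPM. Its 1.69-fold change (log2 0.76 ± 0.11, adjusted p = 0.0263) rests on 2610 counts per library, the deepest of the 9. Syt6, a synaptotagmin of deep-layer neurons, went from 46.3, 52, 46.1 and 44.1 to 65.1, 77.5, 72.6 and 74.4 CPM, a 1.54-fold rise (log2 0.62 ± 0.09, adjusted p = 0.0263).

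Of the other 3 genes that rose, none exceeded 12.9 CPM in any dcKO library. Strip2, a subunit of the STRIPAK phosphatase complex, was at 3.38, 1.96, 3.57 and 2.75 CPM in vehicle and at 6.88, 12.9, 8.89 and 8.09 CPM with ICG-001 (3.14-fold, log2 1.65 ± 0.27, adjusted p = 0.0479). Aebp1, a collagen-binding protein of connective tissue, was at 0.586, 0.98, 0.654 and 1.12 CPM against 7.24, 2.93, 4.03 and 4.22 CPM (5.48-fold, log2 2.45 ± 0.39, adjusted p = 0.0459). WT vehicle library 4 held 3.14 CPM of Aebp1, within the range of the treated libraries. Gm16701, a lincRNA gene on chromosome 1, was at 1.89, 2.14, 2 and 2.33 CPM against 6.22, 3.67, 4.32 and 4.38 CPM (log2 1.15 ± 0.18, adjusted p = 0.0459). A second gene model of the same symbol overlaps it on the same strand, so its counts are uncertain.

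Both genes that fell lie on chromosome 6 within a stretch that held other lower genes. Dera, an aldolase that cleaves deoxyribose phosphate, was at 6.58, 6.19, 7.1 and 8.3 CPM in vehicle and at 2.39, 2.76, 3.64 and 3.27 CPM with ICG-001, with log2 -1.22 ± 0.18 and adjusted p = 0.0339. BC049715, a protein-coding gene, was at 1.35, 1.07, 1.31 and 1.59 CPM against 0.239, 0.459, 0.0972 and 0.399 CPM, with log2 -2.12 ± 0.33 and adjusted p = 0.0459. It overlaps Wbp11 on the opposite strand, and the library kit does not mark strand. Wbp11 itself had a log2 difference of -0.04 ± 0.08. From 134981718 to 137754546 on chromosome 6 (mm10), 5 of 18 tested genes were lower at the 0.01 limit, namely Apold1, Atf7ip, Plbd1, BC049715 and Dera. Atf7ip, a cofactor of histone H3K9 methylation, was at 302, 262, 316 and 313 CPM in vehicle and at 197, 250, 242 and 247 CPM with ICG-001 (log2 -0.35 ± 0.10, adjusted p = 0.18). Among neighbours, Strap was at log2 0.09 ± 0.14. Chromosome 6 had 7.43% of its 821 tested genes called at that limit and 4 of the 9 genes with an adjusted p under 0.05, chromosome 18 had 7.9% of 443, and the lowest share was 2.48% on chromosome 15.

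**Figure D2:**
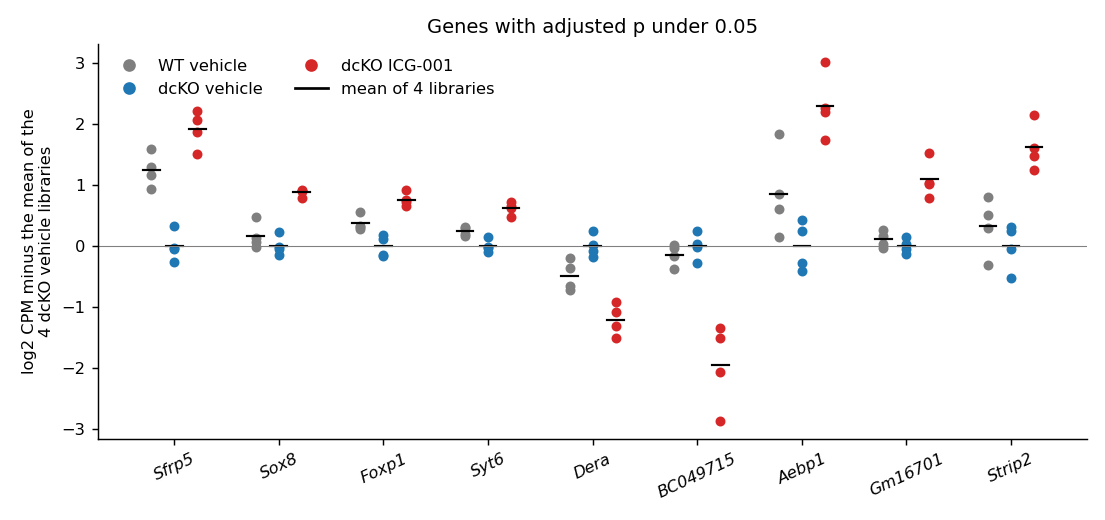
The 9 genes with an adjusted p under 0.05, as log2 CPM (prior count 2) minus the mean of the 4 dcKO vehicle libraries, with 1 point per library of WT vehicle, dcKO vehicle and dcKO ICG-001 and a line at each mean. The 4 ICG-001 points lie apart from the 4 dcKO vehicle points for every gene shown, above them for 7 and below them for Dera and BC049715.

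Beside WT, the called genes did not share a pattern. For Sfrp5 the vehicle dcKO libraries were lower than WT by log2 -1.41 ± 0.26 (adjusted p = 0.221) and the ICG-001 libraries higher by 0.69 ± 0.23 (adjusted p = 0.149). For BC049715 the vehicle libraries differed from WT by 0.15 ± 0.28 and the ICG-001 libraries by -1.98 ± 0.34 (adjusted p = 0.972 and 0.0475). Sox8 differed by -0.17 ± 0.12 and 0.71 ± 0.12 in the same order (adjusted p = 0.753 and 0.051). At an adjusted p under 0.05 the vehicle dcKO libraries differed from WT in 1 gene, which was higher (0.00611%), and the ICG-001 libraries in 10 higher (0.0611%) and 6 lower (0.0366%), or 0.0977% in all. These comparisons share libraries with each other and with the main one, so they are set side by side only.

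The rule for named genes was filled up to 12 per direction with genes past the 0.01 limit whose groups did not overlap, and none of these passed the adjusted limit. Among those with higher values was Tspan9, a tetraspanin (42.5 to 45.2 CPM in vehicle against 66.4 to 78.3 CPM with ICG-001, adjusted p = 0.0849). Msantd2 had log2 0.45 ± 0.08 (adjusted p = 0.0875). Gm5415 and Gm37999, at log2 2.89 ± 0.49 and 2.60 ± 0.48, both lie within the gene Khdrbs2, which itself was at 0.05 ± 0.19. Among those with lower values, Plxna4, a receptor for semaphorins, was at 579, 480, 527 and 565 CPM in vehicle and at 329, 421, 371 and 339 CPM with ICG-001 (log2 -0.56 ± 0.10, adjusted p = 0.0849). Epha6, an ephrin receptor, was at 8.68 to 10.1 CPM against 2.82 to 6.31 CPM (log2 -1.14 ± 0.21, adjusted p = 0.0849). Hivep3, Rnf213, Efcab5 and the transcript D030028A08Rik had log2 values from -0.59 to -0.85, with adjusted p between 0.109 and 0.13.

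Among the 12 lower genes, Eno1b and Gm5855 read as present or nearly absent. Eno1b was at 4.28, 5.12, 3.88 and 3.87 CPM in vehicle and at 0.0598, 0.115, 0.146 and 0 CPM with ICG-001, and WT library 3 held 3.8 CPM where the other WT libraries held 0.205 CPM or less. Gm5855 was at 1.96 to 2.56 CPM in vehicle, at 0.146 CPM or less with ICG-001, and at 1.41 CPM in WT library 3. Both are copies of the glycolytic enzyme gene Eno1, so reads may be split between near-identical sequences and their levels are uncertain. Eno1 itself was at 58.3 to 65.4 CPM in vehicle, 76.7 to 110 CPM with ICG-001 and 43.7 CPM in WT library 3.

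The clustered protocadherins on chromosome 18, surface proteins that give neurons individual identities, made up the largest number of lower genes in one place. From 36930184 to 37765580 (mm10), 15 of 55 tested genes were lower at the 0.01 limit. Of 53 protocadherin genes of the 3 clusters that were tested, 50 had negative values, beside 7893 of 16372 over all genes. At that limit 15 were lower and 0 higher, beside 2.2% and 2.44% of all genes, and the median log2 difference was -0.54. Pcdhga1 was at 14.9, 11.5, 14.8 and 13.2 CPM in vehicle and at 7.77, 8.55, 8.31 and 8.73 CPM with ICG-001 (log2 -0.70 ± 0.12, adjusted p = 0.0602). Pcdhga7 was at 25.6, 20.3, 27.2 and 23.1 CPM against 8.67, 14.5, 11.9 and 14.6 CPM (log2 -0.95 ± 0.16, adjusted p = 0.0639). Not every member lay apart, since ICG-001 library 2 was within the vehicle range for Pcdha2 at 7.75 CPM and for Pcdhga8 at 11.7 CPM. Members of a cluster share their last exons, so they are not independent. The alpha and gamma clusters had medians of -0.65 and -0.60 and the beta cluster, whose genes do not share exons, -0.19. The beta genes were also shorter, with a median of 3720 bases covered by exons against 5350 in alpha and 5050 in gamma. The part of gene length in these values was not tested.

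The Wnt pathway was read by role. Among Wnt ligands and secretion genes, 0 of 15 tested were higher and 1 lower at the 0.01 limit, beside 2.44% and 2.2% of all genes, and the median log2 difference was 0.00 against 0.01 over all genes. The lower one, Wnt2b, a ligand of the cortical hem, was at 11.6, 5.26, 11.1 and 11.5 CPM in vehicle and at 2.57, 4.99, 4.96 and 7.09 CPM with ICG-001 (1.99-fold lower, adjusted p = 0.187). Vehicle library 2 was the one vehicle library within the treated range. It and ICG-001 libraries 1 and 2 had WT-like Smarcc1, and WT held 3.06 to 5.02 CPM of Wnt2b. The part of the Smarcc levels in this difference was not tested. Among 18 receptors, Fzd7 was lower, at 24.3, 28.6, 25.3 and 29.1 CPM against 14.5, 20.7, 20.4 and 20.7 CPM (log2 -0.49 ± 0.12, adjusted p = 0.155). Its treated values did not overlap those of vehicle and stood at the WT level of 19.6 to 21.6 CPM in 3 of 4 libraries, with library 1 below it.

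Of 15 secreted antagonists 2 were higher and 1 lower at that limit, beside 2.44% and 2.2% of all genes (median 0.16). Beside Sfrp5 the higher one was Sostdc1, an inhibitor of BMP and Wnt ligands that is also on the choroid plexus list (log2 0.93 ± 0.31). It was at 2.35, 1.56, 2.96 and 3.26 CPM in vehicle and at 6.28, 4.02, 6.07 and 2.99 CPM with ICG-001, so ICG-001 library 4 lay within the vehicle range. The lower one was Draxin, an axon guidance protein that binds Wnt co-receptors. Draxin was at 387, 346, 360 and 385 CPM in vehicle and at 279, 320, 320 and 311 CPM with ICG-001 (log2 -0.27 ± 0.08). Of 22 transduction genes 0 were higher and 2 lower (median -0.15), the coactivator Ep300 (log2 -0.54 ± 0.16) and Amer1, a scaffold of the beta-catenin degradation complex (log2 -0.42 ± 0.13). Adjusted p for these 4 genes lay between 0.19 and 0.213. Beta-catenin itself, Ctnnb1, was at 1230, 1120, 1200 and 1300 CPM in vehicle and at 825, 1060, 1130 and 1130 CPM with ICG-001, and CBP, Crebbp, was at 141 to 156 CPM against 130 to 148 CPM. Neither had an adjusted p under 0.3. None of the 8 TCF/LEF and TLE genes was called (median 0.08).

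Of 20 tested Wnt target genes, 1 was higher and 0 lower at the 0.01 limit, beside 2.44% and 2.2% of all genes (median -0.02). Axin2 was at 47.9, 32.6, 46.8 and 46.1 CPM in vehicle and at 25.2, 32.4, 35.1 and 43 CPM with ICG-001, against 25.2 to 32.5 CPM in WT. Every treated library was below vehicle libraries 1, 3 and 4. Vehicle library 2 and ICG-001 libraries 1 and 2, whose Smarcc1 was also WT-like, were at the WT level of Axin2. ICG-001 libraries 3 and 4 were above the WT range. The log2 difference was -0.35 ± 0.16 (adjusted p = 0.318) and did not pass the test. Ccnd1, cyclin D1, which drives entry into the cell cycle, behaved alike in level, with 49.9, 38.1, 51.1 and 54.5 CPM against 24.6, 35.8, 40.9 and 46.2 CPM (log2 -0.39 ± 0.16, adjusted p = 0.28). Lef1, a TCF/LEF factor and target, was at 5.66 to 8.72 CPM in vehicle and 6.04 to 7.97 CPM with ICG-001 (log2 -0.06 ± 0.18, adjusted p = 0.905), a sign that turns in 4 of the alternative fits. Birc5, survivin, which acts in mitosis and against apoptosis, was the one higher, at 13, 15.3, 11.2 and 14.5 CPM against 19.7, 16.9, 17 and 18.6 CPM (log2 0.42 ± 0.13, adjusted p = 0.201).

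**Figure D3:**
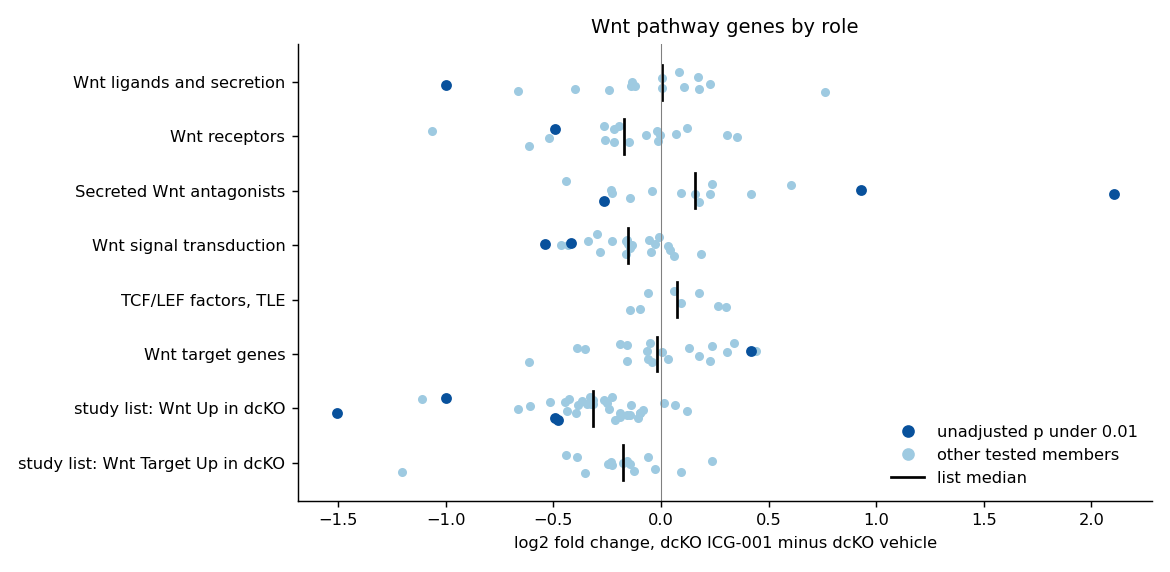
Log2 fold change (dcKO ICG-001 minus dcKO vehicle) of every tested member of 6 Wnt gene groups and of the 2 Wnt lists the study drew up, 1 point per gene, dark where the unadjusted p is under 0.01, with a bar at the median of each list. The medians lie between -0.17 and 0.16 for the 6 groups and at -0.32 and -0.18 for the study's lists.

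Promoters were searched for CTTTGA, the core of the TCF/LEF motif, and its reverse complement TCAAAG, in RefSeq windows of 250 bases before to 50 after a start (GRCm38.p6, the build of mm10). A window held it for 1670 of 11817 tested genes matched by symbol (14.1%), 5 of 16 Wnt target genes, 49 of 277 genes higher and 30 of 231 genes lower at the 0.01 limit. Of the 8 matched genes with an adjusted p under 0.05, 2 held it, Foxp1 in 1 of its 3 windows and BC049715. These are shown with Lef1, which had 2 matches in 1 window, and with Sfrp5, which had none and the smallest p. Capitals mark the motif, and all are written 5′ to 3′ on the gene's strand.
Foxp1 (chr6:99266466-99266765, minus strand): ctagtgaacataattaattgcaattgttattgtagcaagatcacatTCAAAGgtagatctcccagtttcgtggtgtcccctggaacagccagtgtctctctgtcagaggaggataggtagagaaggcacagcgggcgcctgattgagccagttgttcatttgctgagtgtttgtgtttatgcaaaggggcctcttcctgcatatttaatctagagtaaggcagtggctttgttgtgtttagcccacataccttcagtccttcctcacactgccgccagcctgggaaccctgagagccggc
BC049715 (chr6:136828593-136828892, plus strand): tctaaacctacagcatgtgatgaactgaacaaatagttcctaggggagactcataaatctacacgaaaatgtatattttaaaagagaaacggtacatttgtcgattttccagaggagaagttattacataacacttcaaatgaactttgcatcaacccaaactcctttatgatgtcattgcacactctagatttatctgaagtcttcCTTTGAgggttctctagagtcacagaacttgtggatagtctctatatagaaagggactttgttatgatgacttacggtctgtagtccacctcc
Lef1 (chr3:131156044-131156343, plus strand): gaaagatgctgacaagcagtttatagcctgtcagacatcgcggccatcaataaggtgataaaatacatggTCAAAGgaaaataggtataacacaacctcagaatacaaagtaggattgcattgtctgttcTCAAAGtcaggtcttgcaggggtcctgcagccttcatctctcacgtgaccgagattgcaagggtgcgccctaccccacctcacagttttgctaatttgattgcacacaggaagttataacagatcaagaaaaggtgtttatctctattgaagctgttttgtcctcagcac
Sfrp5 (chr19:42202203-42202502, minus strand): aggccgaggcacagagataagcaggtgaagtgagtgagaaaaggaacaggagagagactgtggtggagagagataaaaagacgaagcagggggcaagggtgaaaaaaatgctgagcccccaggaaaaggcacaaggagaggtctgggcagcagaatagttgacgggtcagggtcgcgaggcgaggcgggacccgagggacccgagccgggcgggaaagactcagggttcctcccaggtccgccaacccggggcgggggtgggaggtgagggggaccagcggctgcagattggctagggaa
A match describes letters in the window and says nothing of binding.

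The study's own lists of genes that were higher in its untreated dcKO cortex leaned downward with ICG-001, but unevenly among libraries. For the Wnt list the median difference from the vehicle mean was -0.64, -0.37, -0.06 and -0.03 in ICG-001 libraries 1 to 4. In vehicle libraries 1 to 4 it was 0.08, -0.26, 0.06 and 0.18. The Proliferation list was at -0.67, -0.37, 0.01 and -0.03 against 0.08, -0.32, 0.08 and 0.13. The Wnt target list was at -0.79, -0.4, 0.05 and 0.11 against 0.1, -0.29, 0.09 and 0.18. The fitted medians of these lists were nearer that of all genes with the Smarcc1 level as a covariate and without the 3 libraries above 200 CPM of Smarcc1. The part of the Smarcc levels in this lean was not tested. These lists were picked by the study on its other libraries of this genotype, so their direction between dcKO and WT is no independent evidence. Of 37 tested genes of its Wnt list, 34 had negative values, beside 7893 of 16372 over all genes, and the median was -0.32 against 0.01. At the 0.01 limit 4 were lower and 0 higher, beside 2.2% and 2.44% of all genes. The 4 were Wnt2b, Fzd7, Celsr1 and Esrrb. Celsr1, a planar polarity cadherin, was at 174, 164, 151 and 182 CPM in vehicle and at 82.8, 126, 121 and 151 CPM with ICG-001 (log2 -0.48 ± 0.14), and Esrrb, an orphan nuclear receptor, at 4.1, 0.623, 4.62 and 4.24 CPM against 0.538, 0.976, 1.65 and 1.51 CPM (log2 -1.51 ± 0.47). Vehicle library 2 again stood with the treated libraries for Esrrb.

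In the Proliferation list 68 of 79 were negative and 6 lower at the 0.01 limit, beside 2.2% of all genes (median -0.23). The 6 were Wnt2b, Fzd7, the Hedgehog co-receptor Cdon, the matrix protein Thbs1 and 2 genes of phagocytes, Gpnmb and C3ar1. In the Wnt target list 13 of 15 were negative and 0 called (median -0.18). Summed over the 37 Wnt genes, vehicle libraries ranged from 2850 to 3620 CPM, ICG-001 libraries from 2170 to 3120 CPM and WT from 2490 to 2620 CPM. With the Smarcc1 level as a covariate the medians were -0.18 for the Wnt list, -0.09 for the Proliferation list and 0.01 for the Wnt target list. Without the 3 dcKO libraries above 200 CPM of Smarcc1 they were -0.15, -0.12 and 0.00, so the Wnt target list then had 8 of 15 negative values. In the list of neurogenesis genes that were lower in dcKO, 4 of 109 were higher, beside 2.44% of all genes (median -0.02). They were Sox8, the channel Trpc7 (log2 0.73 ± 0.21), the transcription cofactor Lmo4 (log2 0.47 ± 0.14) and the metallothionein Mt3 (log2 0.74 ± 0.23). Without the 3 libraries the median of this list was -0.18, with 3 higher and 16 lower, where all 16372 genes gave 446 and 736.

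Without the 3 libraries, vehicle libraries 1, 3 and 4 stood against ICG-001 libraries 3 and 4, of which library 4 held Smarcc2 at 80.1% of the WT mean. This smaller contrast had 49 genes above and 117 below vehicle by adjusted p, all 9 genes of the full comparison among them. Axin2 then had log2 -0.26, Ccnd1 -0.25 and Birc5 0.46, none of them called. Scg2, a secretogranin of neuronal granules, was at 67.2, 61.4 and 70 CPM in those vehicle libraries and at 27.4 and 29.5 CPM in the treated ones, while vehicle library 2 held 17.4 CPM and ICG-001 libraries 1 and 2 held 41.6 and 57.3 CPM. Tnr, an extracellular matrix protein, was at 162, 160 and 145 CPM against 82.1 and 90 CPM, with 144 CPM in vehicle library 2 and 84 and 135 CPM in ICG-001 libraries 1 and 2. Glutamate and GABA receptor genes had 9 of 35 lower and 0 higher at the 0.01 limit in this contrast, against 1 of 35 in the full one. Over all 16372 genes the lower calls also went up, from 361 to 736. With each library's gene length trend as an offset, the full comparison had 0 of 35 receptor genes lower and 20 negative, against 28 negative without the offset. That offset was not fitted in the smaller contrast. Scg2 and Tnr were picked after their values were seen.

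Genes of striatal and subpallial neurons gave the largest share of higher values among the lists of cell types inside the brain. Of 15 tested, 10 were higher and 0 lower at the 0.01 limit, beside 2.44% of all genes, 12 had all treated libraries above all vehicle libraries, beside 4.48%, and the median was 1.42. Ikzf1, a zinc finger factor of striatal neurons, was at 4.33, 0.802, 5.88 and 2.84 CPM in vehicle and at 13.6, 18.7, 19.1 and 14.2 CPM with ICG-001 (log2 2.24 ± 0.42, adjusted p = 0.0974). Rarb, a retinoic acid receptor, was at 7.71, 2.76, 7.23 and 9.09 CPM against 15.4, 31.3, 25.7 and 27.7 CPM (log2 1.90 ± 0.39). Adora2a, the adenosine receptor of indirect-pathway neurons, was at 9.83, 5.12, 8.02 and 8.39 CPM against 18.2, 17.9, 19.4 and 16 CPM (log2 1.19 ± 0.24). All 3 lay apart between the groups. WT ran from 1.86 to 4.63 CPM for Ikzf1, from 5.07 to 13.9 CPM for Rarb and from 4.96 to 12.2 CPM for Adora2a, in each case below every treated library.

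Dopamine receptor Drd2, the neuropeptide gene Tac1 and the LIM factor Isl1 were also higher, and Isl1 went from 0.445 to 12.9 CPM in vehicle to 15.5 to 42 CPM with ICG-001. Not all members moved alike, since Ppp1r1b was at log2 -0.79 and Meis2 at 0.15. Their summed level ran from 566 to 785 CPM in vehicle and from 749 to 1030 CPM with ICG-001. Vehicle library 2 stood apart, with a median difference from the vehicle mean of -1.45 against 0.42 to 0.64 in the other vehicle libraries and 1.31 to 1.91 in the treated ones. Without the 3 libraries above 200 CPM of Smarcc1 the median of the list was 1.08, with 11 higher and 1 lower. Among 19 genes of GABAergic interneurons, 4 were higher and 0 lower, beside 2.44% and 2.2% of all genes (median 0.30). Nkx2-1, the factor that specifies the medial ganglionic eminence, was at 3.65, 1.69, 3.79 and 2.66 CPM against 8.19, 22.8, 4.42 and 9.8 CPM (log2 1.93 ± 0.40), and Lhx8, a factor of its cholinergic lineage, at 0.767, 0, 0.828 and 0.326 CPM against 2.51, 12.5, 1.65 and 8.09 CPM (log2 3.66 ± 0.80). ICG-001 library 2 was highest for both. Dlx6 and Npy were the other two.

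Choroid plexus genes had the highest median of all lists, 1.84, but the treated libraries differed widely. Of 14 tested, 9 were higher and 0 lower, beside 2.44% and 2.2% of all genes. Ttr, transthyretin, the most abundant choroid plexus transcript, was at 4.37, 4.05, 5.8 and 3.87 CPM in vehicle and at 803, 147, 448 and 4.03 CPM in ICG-001 libraries 1 to 4, and WT library 4 held 114 CPM. Folr1, a folate receptor of this epithelium, was at 0.134 to 0.373 CPM in vehicle and at 8.73, 2.18, 6.12 and 0.279 CPM with ICG-001. Clic6 and Aqp1, a chloride channel protein and a water channel, followed the same order, so ICG-001 library 4 stood with vehicle for most of the list. Otx2, the homeodomain factor that specifies choroid plexus, was different, at 2.53, 1.43, 2.4 and 3.68 CPM against 7.89, 5.17, 6.12 and 5.38 CPM (log2 1.29 ± 0.25, adjusted p = 0.109), with library 4 raised too. The summed level ran from 21.3 to 33.9 CPM in vehicle and from 30.6 to 894 CPM with ICG-001. Without the 3 libraries above 200 CPM of Smarcc1, 1 of 14 was higher and 1 lower.

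All 13 tested genes of meningeal fibroblasts had positive values (median 0.66), beside 8479 of 16372 over all genes. At the 0.01 limit 2 were higher, beside 2.44% of all genes. They were Crabp2, a retinoic acid-binding protein, and Ogn, a matrix proteoglycan (log2 1.28 ± 0.31 and 1.57 ± 0.43). Crabp2 was at 1.22, 0.401, 0.915 and 0.606 CPM in vehicle and at 1.79, 1.38, 1.75 and 2.67 CPM with ICG-001. Col1a1 ran from 1.91 to 4.75 CPM and from 2.87 to 12.5 CPM, overlapping, and reached 16 CPM in WT. ICG-001 library 4 stood apart for this list, with a median difference from the vehicle mean of 1.46 against 0.45, 0.00 and 0.13 in libraries 1 to 3, and WT libraries 2 and 4 were at 1.44 and 1.12. The summed levels were 99.8 to 135 CPM in vehicle, 108 to 219 CPM with ICG-001 and 105 to 191 CPM in WT. Aebp1, called above, is also read in such tissue, and its share from it was not tested. Microglial genes had 0 of 23 higher and 3 lower, beside 2.44% and 2.2% of all genes (median -0.13). The 3 were Gpnmb, C3ar1 and Spp1. Gpnmb, a protein of activated phagocytes, was at 6.4, 1.2, 7.97 and 2.38 CPM in vehicle and at 0.718, 0.287, 0.875 and 1.16 CPM with ICG-001 (log2 -2.52 ± 0.55, adjusted p = 0.135), against 0.205 to 0.659 CPM in WT. The summed microglial level ran from 498 to 635 CPM in vehicle and from 495 to 683 CPM with ICG-001.

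**Figure D4:**
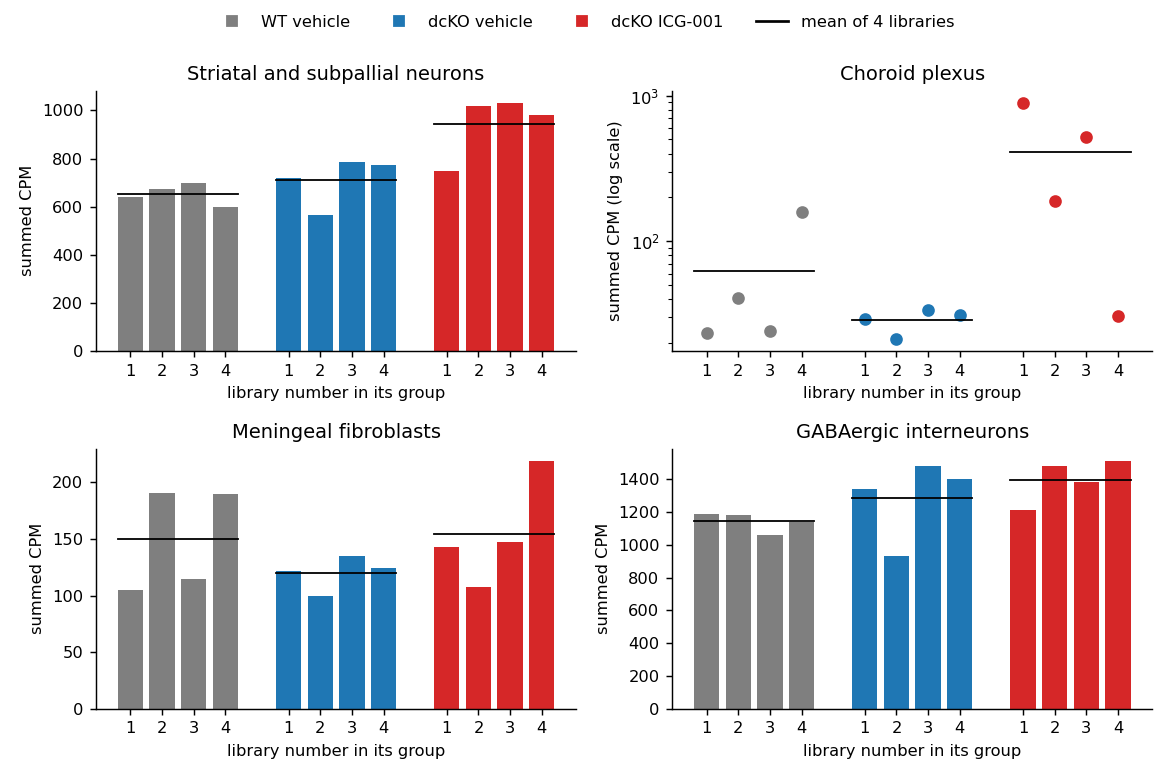
Summed CPM of 4 marker lists in each library of WT vehicle, dcKO vehicle and dcKO ICG-001, with a line at each group's mean, and with points on a log axis for choroid plexus. Choroid plexus genes reach 894 CPM in ICG-001 library 1 and stay at 30.6 CPM in library 4, while striatal genes lie between 749 and 1030 CPM in the 4 treated libraries.

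Few genes of cortical progenitors and their cycle passed the test in the full comparison. Of 40 S phase genes none was called at the 0.01 limit (edgeR, median 0.04). Of 40 genes of G2 and mitosis 2 were higher, Birc5 and the mitotic kinase Cdk1 (log2 0.38 ± 0.12), beside 2.44% of all genes. In this list 38 of 40 values were positive, beside 8479 of 16372 over all genes, and the median was 0.15. Its median difference from the vehicle mean overlapped between groups. It was -0.05, 0.19, -0.17 and 0.06 in vehicle libraries and -0.01, 0.19, 0.1 and 0.3 in ICG-001 libraries. With the Smarcc1 level as a covariate the median was 0.098, with 10 of 40 negative and 0 called. Mki67, the proliferation marker, was at 104 to 134 CPM in vehicle and 103 to 158 CPM with ICG-001. Pax6, a master factor of radial glia, was at 62.4, 61.3, 62.2 and 66.7 CPM against 36.4, 53, 64.9 and 69 CPM, and Eomes, which marks intermediate progenitors, at 53.2, 153, 44.5 and 60.6 CPM against 80.4, 110, 79.8 and 91 CPM. Vehicle library 2 alone was far above the others for Eomes. Of 20 radial glia genes 1 was higher, Glul (log2 0.29 ± 0.09), and of 12 intermediate progenitor genes 0 were called. Upper-layer and deep-layer lists had 1 gene higher each, Lmo4 of 14 and Foxp2 of 17 (log2 0.76 ± 0.21), and the 20 genes of hippocampus and medial pallium had none. Without the 3 libraries above 200 CPM of Smarcc1, 5 of 20 radial glia genes were higher (2 by adjusted p), 3 of 12 intermediate progenitor genes were higher, and the median of G2 and mitosis genes was 0.26 with 0 of 40 negative, beside 446 of 16372 genes higher and a median of 0.02 over all genes.

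Axon guidance genes leaned downward. Of 45, 37 had negative values, 1 was higher and 4 lower at the 0.01 limit (median -0.14), beside 2.2% of all genes lower and 7893 of 16372 negative. With the length offset the median was -0.053 with 2 lower, and without ICG-001 libraries 1 and 3 it was -0.055 with 1 lower and 28 of 45 negative. The higher one was Ntn1, a guidance cue (log2 1.21 ± 0.39). The 4 were Plxna4 and Plxna2, both semaphorin receptors, and Sema4d and Sema5a, both semaphorins. Plxna2 was at 831, 793, 794 and 817 CPM in vehicle and at 496, 747, 596 and 635 CPM with ICG-001 (log2 -0.39 ± 0.11), and Sema4d at 56.3, 59.4, 56.1 and 58.9 CPM against 36.1, 51.9, 37.9 and 45 CPM (log2 -0.43 ± 0.11). Library 1 was the lowest and library 2 the nearest to vehicle for both. The BMP pathway had 3 of 23 higher and 0 lower, beside 2.44% and 2.2% of all genes (median 0.06). The 3 were the homeodomain target Msx1 (log2 1.36 ± 0.40), the inhibitory Smad7 (log2 0.43 ± 0.14) and the ligand Bmp7 (log2 0.64 ± 0.20). The Hedgehog pathway had 1 of 12 lower, the co-receptor Cdon (log2 -0.50 ± 0.14, median of the list -0.26). Of 25 genes of p53 and apoptosis 2 were lower, beside 2.2% of all genes. They were the death receptor Tnfrsf10b (log2 -1.13 ± 0.26) and Bid, a BH3 protein (log2 -0.36 ± 0.11). None of the 30 BAF subunit genes was called (median -0.01).

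The other lists held at most 1 gene past the 0.01 limit each in the full comparison, beside 4.65% of all genes. Hbb-bs, an adult beta-globin, was higher among 7 red blood cell genes (median 0.11), Sox8 among 12 genes of oligodendrocyte precursors (median 0.10) and Mthfd2, a mitochondrial folate enzyme, among 19 genes of serine and amino acid stress (median 0.05). Slc1a2, a glial glutamate transporter, was lower among 16 astrocyte genes (median 0.23). Pclo, a scaffold of the presynaptic active zone, was lower among 30 synaptic genes, of which 21 were negative (median -0.16), and Grin3a, an NMDA receptor subunit, among 35 receptor genes (median -0.15). With the length offset these medians were -0.05 and -0.07, with 17 of 30 and 20 of 35 negative. Tjp1, a tight junction scaffold, was lower among 25 genes of apical junctions (median -0.06) and Ifih1, a sensor of viral RNA, among 13 interferon genes (median 0.01). Cajal-Retzius genes were negative in 9 of 10 cases with 0 called (median -0.36). Their median difference from the vehicle mean was -0.43, -0.05, -0.37 and -0.42 in ICG-001 libraries 1 to 4 and -0.42 in vehicle library 2. The other vehicle libraries lay between 0.08 and 0.2. Without the 3 libraries above 200 CPM of Smarcc1 all 10 were negative (median -0.54). In that fit 5 were lower at the 0.01 limit (2 by adjusted p), beside 736 of 16372 genes. In the full comparison, lists with 0 called were also endothelium and pericytes (median 0.03), G1 cyclins and CDKs (0.05), Notch (-0.04), FGF (0.02), immediate early genes (0.00), hypoxia and glycolysis (0.04), cholesterol synthesis (0.05), histone demethylases and Polycomb (0.02) and thalamic genes (-0.38 over 8 tested).

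The difference between the groups also followed the length of the gene, though not in every treated library. Sorted into 5 equal groups by the bases covered by exons, the shortest genes (56 to 2214 bases) had a median log2 difference of 0.17 with 148 genes higher and 32 lower at the 0.01 limit. The longest genes (7319 bases and more) had a median of -0.12 with 25 higher and 171 lower. By library, the difference from the vehicle mean in the shortest group was 0.32, -0.01, 0.22 and 0.13 in ICG-001 libraries 1 to 4, and in the longest group it was -0.30, 0.04, -0.17 and -0.10. Vehicle libraries, measured from their own mean, lay between -0.03 and 0.05 in both. The gradient was thus steepest in ICG-001 libraries 1 and 3 and did not appear in library 2. WT library 1 showed the gradient too, with 0.09 and -0.10, and WT library 3 its reverse, with -0.08 and 0.11. Its source was not tested. With each library's length trend as an offset, 7 genes higher and 2 lower were called, 8 of the 9 named above among them, and the medians of the axon guidance, striatal and study Wnt lists were -0.05, 1.40 and -0.26.

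**Figure D5:**
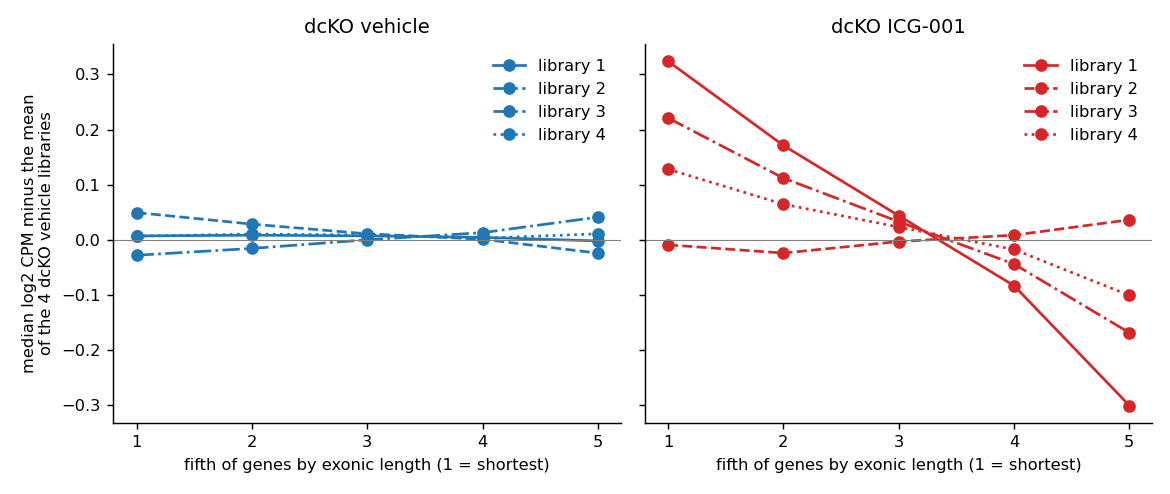
Median log2 CPM minus the mean of the 4 dcKO vehicle libraries in 5 equal groups of genes from the shortest (1) to the longest (5) exonic length, with 1 line per library, vehicle on the left and ICG-001 on the right. ICG-001 library 1 falls from 0.32 to -0.30, libraries 3 and 4 fall less, and library 2 stays near 0.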

How the data were processed

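Cortical RNA was sequenced from 12 libraries of this comparison (4 WT vehicle, 4 dcKO vehicle, 4 dcKO ICG-001). The authors made TruSeq RNA v2 libraries, which do not mark strand, aligned reads to mm10 with STAR and deposited raw read counts per gene from featureCounts; versions and annotation are not given in the sources used here. Of 48709 genes, 48349 matched GENCODE M21. Counts were fitted with edgeR 4.0.16 (TMM, filterByExpr, quasi-likelihood test, 1 coefficient per group over 12 libraries), with Benjamini-Hochberg adjustment over 16372 genes and a limit of 0.05. DESeq2 1.42.0 was an alternative. Library totals were 12514443 to 26600594 reads, so genes of few counts are imprecise. The scripts were tested on simulated data.

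The members and gene lists were chosen with earlier results of these data known, and the study's supplementary per-library values had been seen. Named genes were Smarcc1 and Smarcc2, up to 12 genes per direction with the smallest p, no overlap between groups and a mean count of at least 10, filled up from unadjusted p under 0.01, plus Axin2, Lef1, Ccnd1, Birc5, every called Wnt gene, up to 4 genes per other list and the genes of runs. Alternatives were the normalization, filter, tool, lane, replicate number, Smarcc covariates, libraries in the fit and each library left out. Fits without 3 libraries, without ICG-001 libraries 1 and 3 and with a gene length offset were added after seeing the data. Some named genes are not reported here.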

Additional observations from a re-analysis of the deposited data

Results flagged for a closer look

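Within groups of 4, 4 of 48 groups checked had 1 library far from the other 3, where chance alone gives about 1 in 20. Vehicle library 2 stood apart for Smarcc1 at 242 CPM (the others at 133 to 138 CPM), for Smarcc2 at 692 CPM (425 to 439 CPM) and for Axin2 at 32.6 CPM (46.1 to 47.9 CPM). ICG-001 library 1 stood apart for Sox8 at 32.4 CPM (35 to 35.4 CPM).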

How the results depend on the processing

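The number of genes called did not hold across the 20 alternatives. The 9 genes kept their direction, but they were picked from these same libraries and their groups did not overlap. Genes with an adjusted p under 0.05 were 15 higher and 5 lower with no filter on low counts, 174 and 165 with DESeq2, 169 and 162 with DESeq2 and a prior on fold changes, and 0 and 0 with the lane block, with the Smarcc1 or Smarcc2 covariate and without ICG-001 libraries 1 and 3. Without the 3 libraries above 200 CPM of Smarcc1 they were 49 and 117. Leaving out each library in turn gave 0 to 141 higher and 0 to 281 lower, and at the 0.01 limit 212 to 645 and 157 to 862. At that limit the lane block gave 644 lower, the fit without 3 libraries 736, DESeq2 581 and 566 with its prior, and the fit without ICG-001 libraries 1 and 3 gave 141 higher and 85 lower. The fits without the 3 libraries, without ICG-001 libraries 1 and 3 and with the length offset were chosen after seeing the data, as was the Smarcc1 covariate for the gene lists. Lef1 turned to 0.037 and 0.073 with the Smarcc1 and Smarcc2 covariates and to 0.053 with the length offset, and ranged from -0.16 to 0.074 over single libraries left out; the cause was not tested. The choroid plexus median became 1.34 without the 3 libraries and 0.95 without ICG-001 libraries 1 and 3, the meningeal median 1.04 and 0.90, and the axon guidance median -0.22 and -0.055, with -0.053 under the length offset and a mean of -0.19. Runs of called genes were 34 at a gap of 1 Mb against 57 at 2 Mb. Of 1360 values of named genes, 1111 kept direction and side of the limit, 149 gained it, 96 lost it and 4 turned.

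Same-numbered libraries of the dcKO groups correlated from -0.10 to 0.20 in their deviations, not over 0.1 in every pair, so the numbers were not taken to pair the samples. The replicate block gave 6 genes higher and 1 lower by adjusted p, with 6 of the 9 among them.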
